A study of Mus musculus with 18 samples.

Results

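The genes described here are 45 listed genes of the lysosome, made up of its enzymes, its membrane proteins and the 3 regulators Tfeb, Tfe3 and Mitf, out of 54838 genes in the count table. They were taken from a list by name. All 45 were found, and all passed the filter on low counts that left 20067 genes to test. The cells were primary cultures from single brains of C57BL/6J wild type embryos at E14. Neural stem cells of the ventricular zone were grown as neurospheres (NSPs) with EGF and B27, and to become astrocytes the NSPs were moved to coated plates in DMEM with 10% FBS. Total RNA was sequenced, after removal of ribosomal RNA, from 6 conditions with 3 replicates each: NSPs (labelled 0 h), differentiating cells at 24 h and 72 h without TNF, the same times with TNF at 50 ng/ml, and cells at 1 week without TNF. TNF is the inflammatory cytokine tumour necrosis factor. The loss of EGF and B27, the serum and the coated plate came together, so their effects cannot be told apart. These are bulk cultures, in which fewer cells of a type and less RNA per cell cannot be told apart either.

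Lysosomes are acidic organelles in which cells break down proteins, lipids, glycans and glycogen that arrive by endocytosis or autophagy. Soluble hydrolases do the breakdown, their cofactors present the lipid substrates, and heavily glycosylated membrane proteins line the organelle and carry products out. TFEB, TFE3 and MITF are related basic helix-loop-helix factors that leave the cytoplasm for the nucleus when the kinase mTORC1 at the lysosome is inactive, and TFEB binds a palindromic promoter sequence shared by many lysosomal genes, the CLEAR element, with CACGTG at its centre. Astrocytes use lysosomes to digest engulfed synapses and debris, and inherited loss of many of the enzymes below causes storage diseases of the brain.

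The windows below are shown because the core of the CLEAR element stands in them, in genes that moved in different directions in the cells. They run from 250 bases before to 50 bases from a transcription start in RefSeq (build GRCm38.p6, the assembly also called mm10, which is the build named in the submitters' processing notes). A window was given for 39 of the 45 genes, and some genes have several starts. Capitals mark every CACGTG together with a T just before it and an A just after it where these are present. Cln3 (chr7:126583187-126583486, minus strand), Ctsa (chr2:164833523-164833822, plus strand), Ctsd (chr7:142387778-142388077, minus strand), Lamp1 (chr8:13158911-13159210, plus strand) and Ctsl (chr13:64370471-64370770, minus strand) were higher at 72 h than in NSPs. Gla (chrX:134600956-134601255, minus strand) and Glb1 (chr9:114400828-114401127, plus strand) were lower, and Mcoln1 (chr8:3500269-3500568, plus strand) was not called in either direction.
Cln3: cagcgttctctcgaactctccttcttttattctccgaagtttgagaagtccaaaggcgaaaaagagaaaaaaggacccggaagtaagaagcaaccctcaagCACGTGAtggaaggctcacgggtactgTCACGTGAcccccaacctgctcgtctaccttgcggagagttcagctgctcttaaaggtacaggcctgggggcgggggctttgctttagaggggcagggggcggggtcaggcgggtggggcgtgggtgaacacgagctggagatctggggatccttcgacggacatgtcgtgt
Ctsa: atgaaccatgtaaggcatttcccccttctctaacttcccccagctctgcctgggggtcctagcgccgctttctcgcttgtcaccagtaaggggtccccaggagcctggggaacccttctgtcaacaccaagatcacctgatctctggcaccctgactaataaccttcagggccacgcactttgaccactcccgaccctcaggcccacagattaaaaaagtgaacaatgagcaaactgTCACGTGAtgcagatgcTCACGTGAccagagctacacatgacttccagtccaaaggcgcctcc
Ctsd: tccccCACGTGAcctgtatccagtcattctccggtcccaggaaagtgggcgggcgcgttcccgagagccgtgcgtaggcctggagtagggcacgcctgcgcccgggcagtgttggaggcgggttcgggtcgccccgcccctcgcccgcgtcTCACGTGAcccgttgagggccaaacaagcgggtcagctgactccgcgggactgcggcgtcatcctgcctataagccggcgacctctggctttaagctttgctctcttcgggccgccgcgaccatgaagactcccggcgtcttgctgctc
Lamp1: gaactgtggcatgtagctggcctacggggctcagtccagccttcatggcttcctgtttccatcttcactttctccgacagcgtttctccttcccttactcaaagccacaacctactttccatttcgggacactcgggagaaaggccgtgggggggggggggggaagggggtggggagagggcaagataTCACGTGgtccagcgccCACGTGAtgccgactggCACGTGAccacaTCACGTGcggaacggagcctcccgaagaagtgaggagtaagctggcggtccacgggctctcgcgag
Ctsl: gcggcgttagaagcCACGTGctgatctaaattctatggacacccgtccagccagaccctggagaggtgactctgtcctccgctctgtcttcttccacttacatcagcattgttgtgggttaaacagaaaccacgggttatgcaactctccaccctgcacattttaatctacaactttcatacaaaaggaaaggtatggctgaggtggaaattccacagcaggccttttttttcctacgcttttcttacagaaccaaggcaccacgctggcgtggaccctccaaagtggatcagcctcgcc
Gla: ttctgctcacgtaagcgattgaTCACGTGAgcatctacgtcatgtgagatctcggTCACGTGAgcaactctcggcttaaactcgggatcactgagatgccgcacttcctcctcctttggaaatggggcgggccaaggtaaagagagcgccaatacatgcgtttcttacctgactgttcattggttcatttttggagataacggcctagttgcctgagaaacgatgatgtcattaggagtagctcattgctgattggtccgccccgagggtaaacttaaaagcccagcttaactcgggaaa
Glb1: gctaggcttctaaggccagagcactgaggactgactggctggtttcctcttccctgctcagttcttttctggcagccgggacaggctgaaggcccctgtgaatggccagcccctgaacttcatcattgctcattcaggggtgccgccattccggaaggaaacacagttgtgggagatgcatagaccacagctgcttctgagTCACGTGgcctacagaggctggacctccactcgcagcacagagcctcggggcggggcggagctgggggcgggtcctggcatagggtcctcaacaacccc
Mcoln1: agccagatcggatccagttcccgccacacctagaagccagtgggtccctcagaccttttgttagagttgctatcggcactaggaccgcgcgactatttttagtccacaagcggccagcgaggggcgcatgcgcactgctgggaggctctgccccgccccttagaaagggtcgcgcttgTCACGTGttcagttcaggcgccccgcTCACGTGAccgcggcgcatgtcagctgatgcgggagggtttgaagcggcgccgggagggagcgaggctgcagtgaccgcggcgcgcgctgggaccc

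The windows were searched for 4 strings on both strands. TCACGTG was found in 10 of the 39 genes (Cln3, Ctsa, Ctsd, Gaa, Gla, Glb1, Lamp1, Mcoln1, Naglu and Sgsh), or 21.3% of the 47 windows of the lysosomal genes, and in 3.77% of all 32851 windows. The full palindrome TCACGTGA, which contains TCACGTG, was found in 5 genes (Cln3, Ctsa, Ctsd, Gla and Mcoln1), or 10.6% of their windows against 0.974% of all windows. The shorter CACGTG added Ctsf and Ctsl, for 25.5% of their windows against 7.15% of all. TCATGTGA, a related string that cannot contain the others, was found in Gla, Grn, Ppt1 and Tpp1 (8.51% of their windows against 0.986% of all). Lamp1 held 4 matches within the last 62 bases before its start, and Gla held the full palindrome 2 times, 228 and 195 bases before its start. At 72 h, 5 of the 10 genes with TCACGTG were called higher than in NSPs and 2 were called lower, while the other 3 did not pass the test. Over all 45 genes the shares were 51.1% and 15.6%, and over all genes tested 28.1% and 27.2%, and nothing is read from the count of 10. A match is a description of the letters in the window, and no binding was measured here.

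Total counts per library ranged from 12509693 to 22549627 (median 16794798). Levels are given in CPM, counts per 1000000 with TMM-scaled library sizes, as mean ± SD with n = 3, and the 3 values of a condition are always given in the order of replicates 1, 2 and 3. A gene was called where edgeR's quasi-likelihood test gave a Benjamini-Hochberg adjusted p under 0.05 over all genes tested. Of 16 markers of microglia and macrophages, cells rich in lysosomes, 10 had at most 3 counts in every library (among them C1qa, Trem2 and Ptprc) and the 16 together reached at most 4.33 CPM in a library. The astrocyte marker Gfap was at 11.6, 37.3 and 32.4 CPM in NSPs, 864, 883 and 949 CPM at 24 h, 1855, 3172 and 2270.0 CPM at 72 h and 55.9, 52.7 and 81.6 CPM at 1 week, so the cultures labelled astrocytes at 1 week had little of it. Against NSPs, 3 of the 8 astrocyte markers were higher and 1 was lower at 24 h, 2 (Gfap and Aqp4) higher and 3 (Slc1a3, S100b and Aldoc) lower at 72 h, and none higher and 5 lower at 1 week, with a median log2 fold change of -0.41 at 72 h. Aldoc was at 1010.2, 1232 and 1301 CPM in NSPs and 444, 621 and 679 CPM at 72 h, and Slc1a3 was still at 2137, 1800.4 and 2264 CPM at 1 week, so the markers of the list did not move together. Replicate 1 of NSPs and of both TNF conditions stood apart from its fellows. In the TNF libraries 6.24% of the counts at 24 h and 8.01% at 72 h were mitochondrial in replicate 1, against 2.43% to 3.66% in the others, and Neat1 was at 1503 and 887 CPM against 406 to 437 CPM. In NSPs replicate 1, 36 of the 45 lysosomal genes were at their lowest among the 3 libraries. The same held for 37 genes in 72 h replicate 1 and for 31 in 1 week replicate 2.

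Per kilobase of exon, Psap was the most abundant of the 45 genes, with 529 CPM per kb averaged over the 6 conditions, followed by Laptm4a (285), Lamp1 (227) and Ctsd (158). The least abundant were Ctsk, at 0.430 CPM per kb, and Ctsh, at 0.565, and Ctsk had 6 to 20 counts in a library. Added up, the 45 genes took 5250 ± 632 CPM in NSPs and 6120 ± 434 CPM at 24 h. They took 8521 ± 1374 CPM at 72 h and 7312 ± 649 CPM at 1 week. The lowest 72 h library (7003 CPM) was above every NSP and 24 h library, but within the range of the 1 week libraries (6610 to 7889 CPM). With TNF the sum was 6599 ± 384 CPM at 24 h and 6589 ± 219 at 72 h, where each library (6452 to 6842 CPM) was below all the untreated ones. Over the 4 untreated conditions, 20 of the 45 genes had their highest mean at 72 h, 9 in NSPs, 8 at 24 h and 8 at 1 week, whereas of all genes tested 18.4% were highest at 72 h, 36% in NSPs, 23% at 24 h and 22.6% at 1 week.

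**Figure D1:**
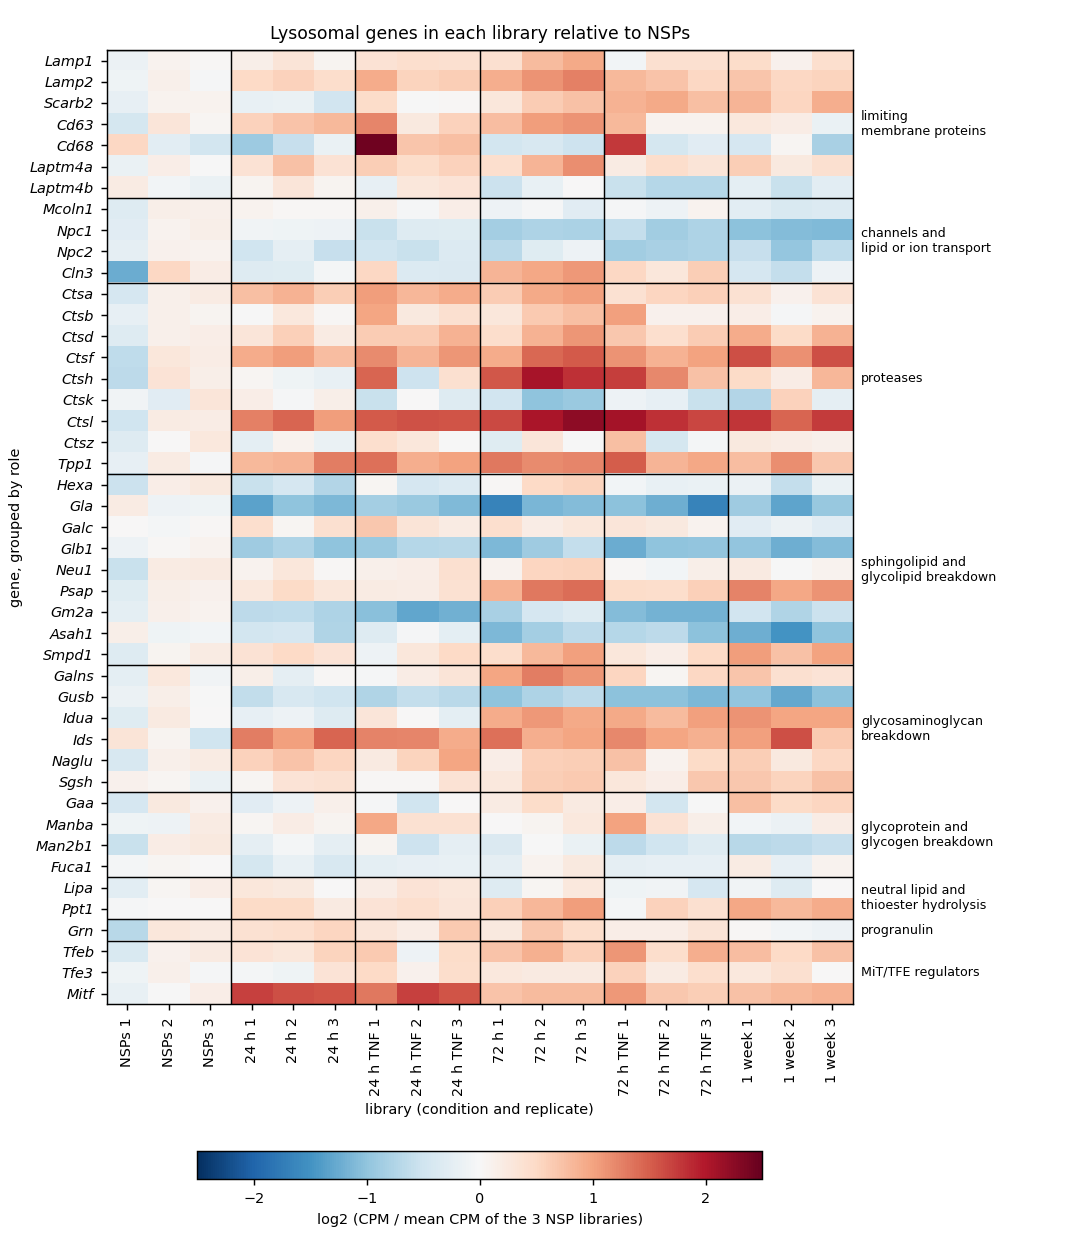
Colour gives log2 of the CPM in each of the 18 libraries over the mean of the 3 NSP libraries for the 45 lysosomal genes, in rows by role. Ctsl and Ctsf were red in every differentiated library, Gla, Glb1 and Gusb were blue in every one, Mitf was reddest at 24 h, and Cd68 was reddest in replicate 1 of both TNF conditions.

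The first question was how these genes changed as NSPs became astrocytes. At 24 h, 11 of the 45 were higher than in NSPs (27.2% of all genes tested were) and 8 were lower (25.5%), so that the share in each direction was below that of all genes tested. Both counts depended on single libraries: 7 were higher and 10 lower without NSP replicate 1, and 5 were lower without NSP replicate 2, NSP replicate 3 or 24 h replicate 3. The shares of all genes in these refits are not given here. At 72 h, 23 were higher, or 51.1%, beside 28.1% of all genes, and 7 were lower, or 15.6%, beside 27.2%. At 1 week, 17 were higher (37.8% against 29.6%) and 9 lower (20.0% against 29.1%). The median log2 fold change of the 45 genes was 0.10 at 24 h, 0.47 at 72 h and 0.18 at 1 week, while that of all genes was between 0.05 and 0.06. These 3 comparisons share the NSP libraries and are not independent. Most of the lysosomal genes are well expressed, and 38 were among the 10122 genes with a mean of at least 10 CPM, a minimum chosen after the data were seen. Of these 38, 28.9% were higher at 24 h (22.3% of the 10122 were) and 18.4% lower (37.4%), with a median log2 fold change of 0.18 against -0.18, so that the share of higher genes at 24 h lay above this background and not below it. At 72 h, 52.6% of the 38 were higher (25.6%) and 15.8% lower (37.2%), and at 1 week 42.1% were higher (25.2%) and 21.1% lower (39.8%). Without the 3 libraries that stood apart, 11 of the 45 were higher at 24 h (28.3% of all genes in that fit) and 13 lower (27.8%). At 72 h in that fit 22 were higher (29.1%) and 9 lower (27.8%), and at 1 week 15 were higher (31.2%) and 12 lower (29.8%).

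Markers of other cells and of cycling also moved between NSPs and 72 h. Of 5 markers of neural stem cells and cycling cells, 3 were lower at 72 h than in NSPs, the cycling genes Mki67, Top2a and Ccnb1. The median log2 fold change of the 5 was -7.21. Mki67, a protein of dividing cells, went from 493, 457 and 471 CPM to 1.44, 1.35 and 1.38 CPM. The stem cell genes Nes and Sox2 were not called. Sox2 was at 248, 381 and 364 CPM in NSPs and 251, 344 and 343 CPM at 72 h, and Nes was at 1798, 1055 and 1126.5 CPM and 713, 824 and 1020 CPM. Of 5 oligodendrocyte-lineage markers tested, 4 were lower, and Olig2, a factor of that lineage and of neural progenitors, went from 444, 397 and 404 CPM to 20.96, 21.2 and 18.4 CPM. Of 5 neuron markers 4 were lower. Some scarce markers rose instead. Rgs5, the 1 pericyte and fibroblast marker tested, was at 0.063, 0 and 0.114 CPM in NSPs and 2.19, 3.13 and 2.15 CPM at 72 h. Of 2 endothelium markers tested 1 was higher, Kdr, at 3.74, 1.98 and 1.59 CPM and 4.84, 6.32 and 6.11 CPM. The summed level of the stem and cycling list was 2651 to 3966 CPM in NSPs and 970.4 to 1373 CPM at 72 h. That of the 6 oligodendrocyte-lineage markers was 436 to 458.1 CPM and 25.8 to 29.45 CPM, and that of the neuron list 17.8 to 35.7 CPM and 10.4 to 11.45 CPM. Their part in the changes of the lysosomal genes was not tested.

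**Figure D2:**
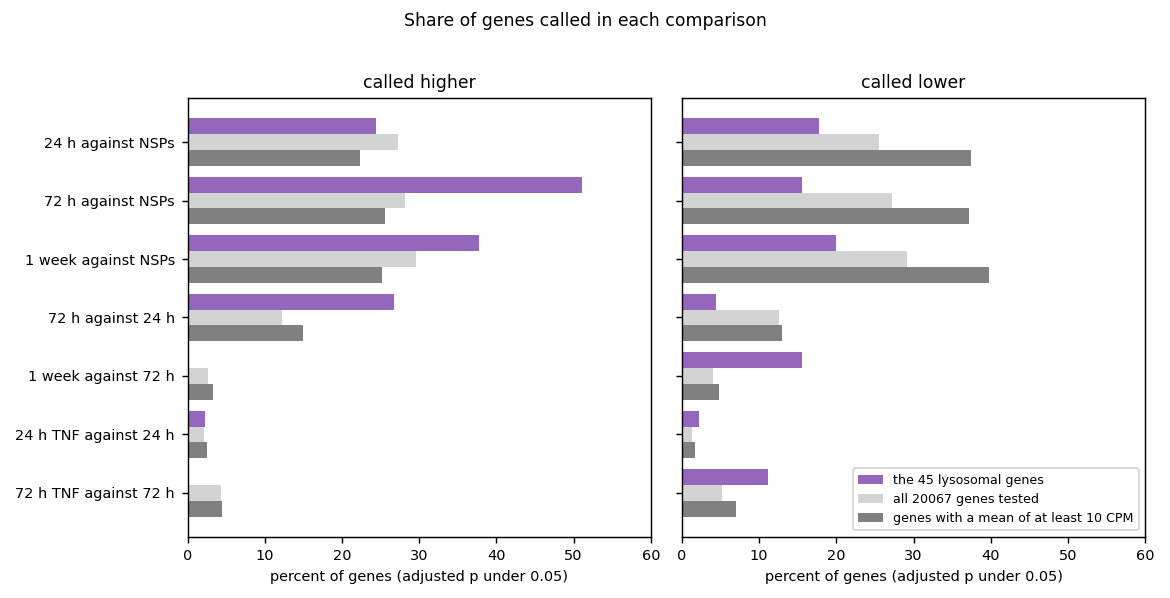
Bars give the percent of genes called higher (left) or lower (right) in 7 comparisons, for the 45 lysosomal genes, all 20067 genes tested and the 10122 genes with a mean of at least 10 CPM. The lysosomal genes exceeded both backgrounds among the higher genes at 72 h (51.1%) and 1 week (37.8%) against NSPs and at 72 h against 24 h (26.7%), and among the lower genes at 1 week against 72 h (15.6%) and with TNF at 72 h (11.1%). With TNF at 24 h each bar of the lysosomal genes is 1 gene (2.22%).

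Among the 9 proteases, none was called lower than in NSPs at any time, while 4 were higher after 24 h, 7 after 72 h and 4 after 1 week. Counts over so few genes are a description, to be set beside the shares of all genes, which were 27.2%, 28.1% and 29.6% higher and 25.5%, 27.2% and 29.1% lower at these times. The share of higher proteases was 44.4%, 77.8% and 44.4%. Ctsl (chr13:64359337-64370890), the cysteine endoprotease cathepsin L, was at 70.1, 113 and 113 CPM in NSPs. It was at 237, 272 and 202 CPM at 24 h, at 311, 408 and 468 CPM at 72 h and at 340.4, 269.8 and 329.9 CPM at 1 week. Every differentiated library was therefore above every NSP library, with a rise of 2.40-fold at 24 h, 4.01-fold at 72 h (log2 fold change 2.00 (SE 0.19), adjusted p = 5.3e-08) and 3.18-fold at 1 week. Reads of Ctsl are uncertain in part, since 26.8% of its exon bases overlap an antisense gene (a median of 0 counts in the table) and the strand setting of the counting is not given in the sources used here. Ctsf, cathepsin F of the same papain family, was at 22.2, 42.3 and 39.3 CPM in NSPs and 65.8, 71.1 and 59.3 CPM at 24 h. It was at 65.6, 93.9 and 99.99 CPM at 72 h and 106, 76.6 and 105 CPM at 1 week, above all NSP libraries at each time, and 2.77-fold higher at 1 week (adjusted p = 6.89e-06). Tpp1, which clips tripeptides from the ends of proteins and is lost in a childhood form of neuronal ceroid lipofuscinosis, was at 49.3, 65.02 and 55.7 CPM in NSPs and 142, 129 and 131 CPM at 72 h. The 72 h libraries were close together and 2.37-fold higher (adjusted p = 1.7e-05), and Tpp1 was also called at 24 h (1.99-fold) and 1 week (1.84-fold).

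Ctsh, an aminopeptidase, was scarce and higher only at 72 h among the times called. It was at 0.889, 1.76 and 1.54 CPM in NSPs, 1.44, 1.29 and 1.22 CPM at 24 h, 4.09, 5.83 and 4.95 CPM at 72 h and 1.94, 1.59 and 2.46 CPM at 1 week. The 72 h libraries, with 54 to 95 counts, were above all the other untreated ones, and the gene was 3.53-fold higher than in NSPs (adjusted p = 0.000508) and 3.76-fold higher than at 24 h (adjusted p = 0.00134). From 72 h to 1 week it was 2.50-fold lower (adjusted p = 0.0357), a call lost without 72 h replicate 2 or 3 or without 1 week replicate 1, 2 or 3, at adjusted p of 0.0626 to 0.151. Ctsa, the protective protein that holds neuraminidase and beta-galactosidase together, was at 74.7 ± 16.3 CPM in NSPs, 125 ± 11.3 CPM at 24 h and 137 ± 19.03 CPM at 72 h, 1.68-fold and 1.83-fold higher. Of its exon bases 10.5% overlap Pltp on the other strand, an expressed gene (a median of 907.5 counts beside 1759.5 for Ctsa). Ctsd, the main aspartic protease of lysosomes, was at 251 ± 44.5 CPM in NSPs, 445 ± 99.7 CPM at 72 h and 427 ± 66.7 CPM at 1 week, 1.77-fold and 1.70-fold higher than in NSPs, though 34.4% of its exon bases overlap a predicted gene on the same strand, to which the table gives a median of 0 counts. Ctsb, cathepsin B, passed the test at 72 h alone (1.49-fold, adjusted p = 0.0326), and the call was lost without NSP replicate 1 or 3 or without 72 h replicate 2 or 3, at adjusted p of 0.0576 to 0.113. Of its exon bases 12.8% overlap Fdft1 on the other strand, which is expressed too (a median of 1033.5 counts beside 4822.5 for Ctsb). Ctsk, best known from bone-resorbing cells, and Ctsz were not called in any of the 8 comparisons, and Ctsz was at 3.56 ± 0.705 CPM in NSPs and 3.61 ± 0.774 CPM at 72 h.

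The 7 proteins of the limiting membrane included 3 genes that were higher after 24 h than in NSPs, 5 after 72 h and 3 after 1 week, with none lower. These are 42.9%, 71.4% and 42.9%, beside 27.2%, 28.1% and 29.6% of all genes, and at 24 h and 1 week the excess comes to about 1 gene. Lamp2, which coats the lysosomal membrane and is needed for chaperone-mediated autophagy, was at 319, 379 and 337 CPM in NSPs. It was at 490.1, 518 and 467 CPM at 24 h, 647, 747 and 826 CPM at 72 h and 558, 497 and 509 CPM at 1 week. All differentiated libraries lay above the NSP ones, and the 72 h libraries were above all others without TNF, with a rise of 2.14-fold over NSPs (adjusted p = 1.15e-06). Lamp1, the other main coat protein, was at 482 ± 40.7 CPM in NSPs and 802 ± 151 CPM at 72 h (1.66-fold higher). Laptm4a, a small membrane protein of late endosomes, went from 366 ± 41.8 CPM to 656 ± 162 CPM (1.79-fold higher). Its call at 24 h was lost without NSP replicate 1 or without 24 h replicate 2, at adjusted p of 0.0654 to 0.0843, and that at 1 week was lost without NSP replicate 1 or 3 or without 1 week replicate 1 or 3, at adjusted p of 0.0541 to 0.142. Cd63, a tetraspanin of lysosomes and exosomes, was at 88.2, 146 and 123 CPM in NSPs and 204, 245 and 258 CPM at 72 h, 1.98-fold higher (adjusted p = 0.00166). By 1 week it was at 144, 136 and 106 CPM, which overlapped NSPs. The call of Cd63 at 24 h (1.62-fold higher) was lost without NSP replicate 1 or without 24 h replicate 3, at adjusted p of 0.0649 to 0.0916. Scarb2 (LIMP-2), the receptor that carries glucocerebrosidase to the lysosome, was at 332 ± 38.6 CPM in NSPs, 275 ± 31.5 CPM at 24 h, 487 ± 76.96 CPM at 72 h and 567 ± 74.1 CPM at 1 week, and was called higher at 72 h (1.47-fold) and 1 week (1.71-fold). Laptm4b was called in no comparison, and Cd68, a glycoprotein used as a macrophage marker, was called with TNF alone and is described there.

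Of the 4 genes of transport across the membrane, 1 was lower at 24 h, 2 were lower and 1 (Cln3) was higher at 72 h, and 3 were lower at 1 week, each against NSPs. The lower share was 25% at 24 h (25.5% of all genes), 50.0% at 72 h (27.2%) and 75.0% at 1 week (29.1%), and the higher share at 72 h was 25% (28.1%), so that the counts at 24 h and the higher one at 72 h were at the background. Npc1 and Npc2 hand cholesterol out of the lysosome, Npc1 from within the membrane and Npc2 as a soluble carrier. Npc1 was at 155, 202 and 211 CPM in NSPs, 177, 175 and 173 CPM at 24 h, 104, 110.2 and 109.8 CPM at 72 h and 92.7, 89.6 and 87.8 CPM at 1 week. The 72 h and 1 week libraries did not reach the NSP libraries, and Npc1 was 1.75-fold lower at 72 h and 2.10-fold lower at 1 week (adjusted p = 4.29e-07). Between 24 h and 72 h it fell as well (log2 fold change -0.69 (SE 0.12), adjusted p = 0.00029). Npc2 was at 169 ± 21.5 CPM in NSPs and 103 ± 13.8 CPM at 1 week (1.65-fold lower). It was also lower at 24 h, a call lost without NSP replicate 2 or 3 or without 24 h replicate 1 or 3, at adjusted p of 0.07 to 0.0743, and at 72 h, a call lost without NSP replicate 2 or 3 or without 72 h replicate 1 or 2, at adjusted p of 0.0784 to 0.243. Cln3, a membrane protein lost in juvenile Batten disease, was at 3.17, 10.7 and 8.53 CPM in NSPs, 5.97, 6.04 and 7.25 CPM at 24 h, 13.4, 14.7 and 15.9 CPM at 72 h and 5.56, 4.93 and 6.83 CPM at 1 week. It stood out at 72 h, with a rise of 2.29-fold over 24 h (adjusted p = 0.00831) and a fall of 2.55-fold to 1 week (adjusted p = 0.0118, lost without 1 week replicate 1 or 2, at adjusted p of 0.0566 to 0.0644). NSP replicate 1 was well below its fellows for Cln3. Mcoln1, the calcium channel TRPML1, was called at 1 week alone, 1.26-fold lower, with overlapping values and a call lost without NSP replicate 2 or 3 or without 1 week replicate 1, 2 or 3, at adjusted p of 0.0522 to 0.146.

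**Figure D3:**
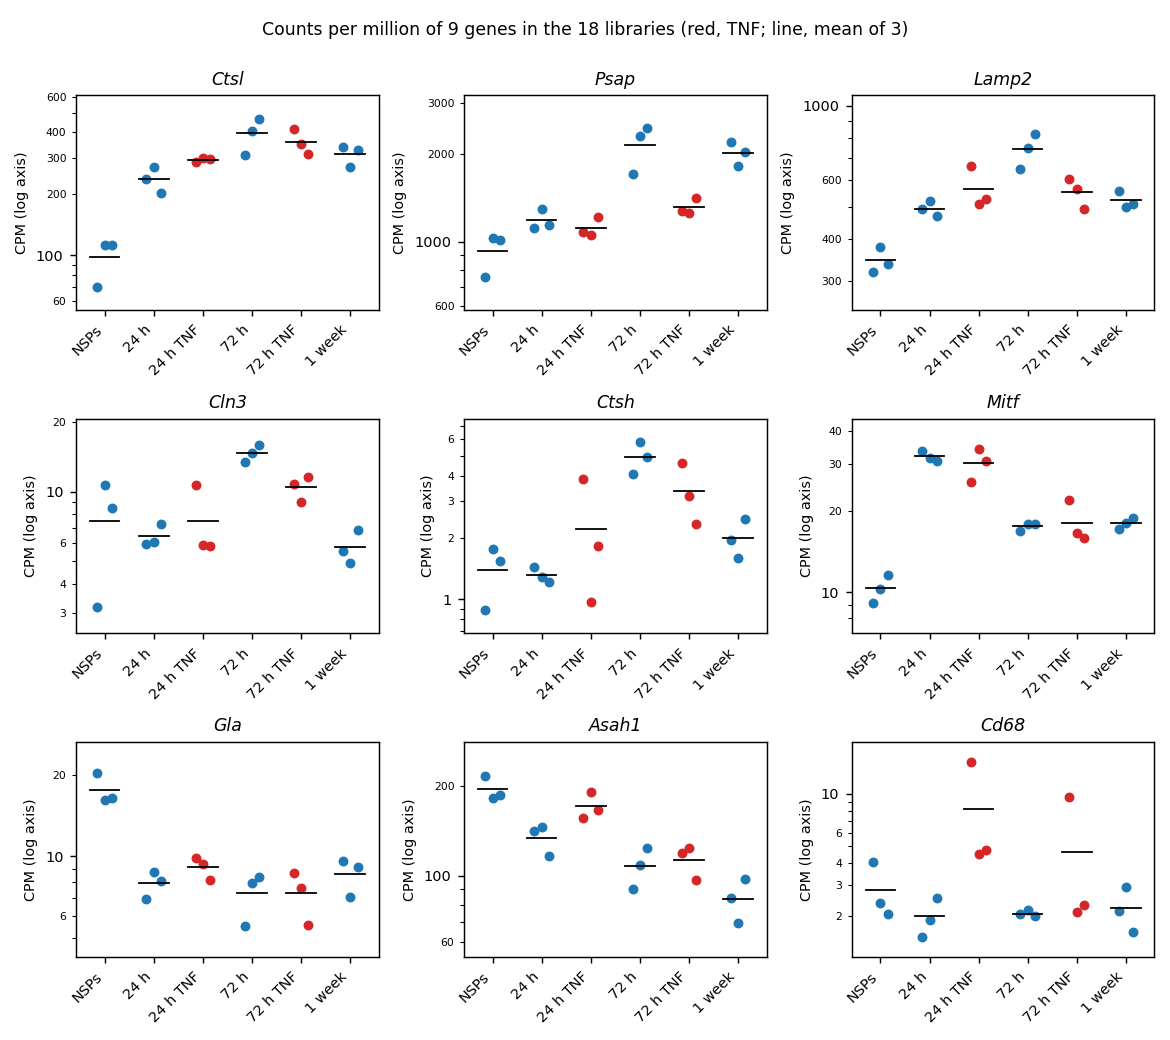
CPM (log axis) of 9 lysosomal genes in the 18 libraries, by condition, with TNF libraries in red and the mean of 3 as a line. Ctsl and Psap stayed high at 1 week, Lamp2, Cln3 and Ctsh were highest at 72 h, and Mitf was highest at 24 h. Gla was lower than in NSPs with and without TNF. So was Asah1, except at 24 h with TNF, where its libraries overlapped those of NSPs. Cd68 was high in replicate 1 of both TNF conditions.

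Of the 9 genes of sphingolipid and glycolipid breakdown, 5 were lower (55.6%, beside 25.5% of all genes) and none was higher (27.2%) than in NSPs at 24 h. At both 72 h and 1 week 4 were lower (44.4%, beside 27.2% and 29.1%) and 2 higher (22.2%, beside 28.1% and 29.6%). Psap (chr10:60277627-60302597), the precursor of the 4 saposins that lift lipids out of membranes for the enzymes, was at 755, 1027 and 1008 CPM in NSPs and 1110.5, 1297 and 1137 CPM at 24 h. It was at 1709.5, 2305 and 2449.6 CPM at 72 h and 2200.2, 1820.1 and 2032 CPM at 1 week, above every library of NSPs and 24 h, and 2.32-fold and 2.17-fold higher than in NSPs (adjusted p = 2.01e-06 and 4.69e-06). Smpd1, acid sphingomyelinase, was at 67.3 ± 12.4 CPM in NSPs, 116 ± 23.2 CPM at 72 h and 129 ± 14.5 CPM at 1 week, 1.72-fold and 1.91-fold higher. In contrast, the gene for the other lipid-lifting cofactor, Gm2a, the GM2 activator, was at 246, 316 and 310.3 CPM in NSPs and 186, 187 and 171 CPM at 24 h. It was at 165, 218 and 232 CPM at 72 h and 209, 173 and 200.2 CPM at 1 week, below all NSP libraries each time, and 1.60-fold lower at 24 h (adjusted p = 0.000388).

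Gla (chrX:134588149-134601125), alpha-galactosidase A, the enzyme lost in Fabry disease, was at 20.4, 16.1 and 16.4 CPM in NSPs. It was at 6.95, 8.78 and 8.07 CPM at 24 h, 5.52, 7.98 and 8.36 CPM at 72 h and 9.58, 7.07 and 9.16 CPM at 1 week, so that Gla was 2.22-fold lower by 24 h, and neither later step from one time to the next passed the test. Glb1, the beta-galactosidase that trims GM1 ganglioside and is read out in the senescence stain, was at 55.7, 61.6 and 64.7 CPM in NSPs and 32.6, 35.6 and 30.1 CPM at 24 h. It was at 27.9, 32.9 and 40.3 CPM at 72 h and 30.5, 25.98 and 28.5 CPM at 1 week, 2.14-fold lower than in NSPs (adjusted p = 1.69e-06). Asah1 (chr8:41340197-41374773), acid ceramidase, was at 217, 183 and 187 CPM in NSPs, 142, 146 and 117 CPM at 24 h, 90.2, 109 and 124 CPM at 72 h and 84.3, 69.4 and 97.3 CPM at 1 week. Without TNF all its differentiated libraries were below the NSP libraries, by 1.45-fold at 24 h, 1.82-fold at 72 h and 2.34-fold at 1 week (adjusted p = 1.77e-06). Hexa, the alpha chain of beta-hexosaminidase, was at 68.5, 112 and 117 CPM in NSPs, 67.6, 74.4 and 59.2 CPM at 24 h, 101, 140.2 and 146 CPM at 72 h and 89.6, 65.7 and 87.9 CPM at 1 week. It rose 1.93-fold from 24 h to 72 h, between a lower value at 24 h than in NSPs (1.48-fold, overlapping, lost without NSP replicate 2 or 3 or without 24 h replicate 3, at adjusted p of 0.0781 to 0.101) and a lower one at 1 week than at 72 h (1.59-fold, lost without 72 h replicate 2 or 3 or without 1 week replicate 1, 2 or 3, at adjusted p of 0.0713 to 0.188). Galc, which degrades the myelin lipid galactosylceramide, passed from 72 h to 1 week alone (1.44-fold lower, lost without 72 h replicate 1 or 3 or without 1 week replicate 1 or 3, at adjusted p of 0.054 to 0.0876), and Neu1, a sialidase, passed in no comparison (26.4 ± 7.23 CPM in NSPs and 35.1 ± 6.12 CPM at 72 h).

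Of the 6 enzymes of glycosaminoglycan breakdown, which take apart the sugar chains of the extracellular matrix, 2 were higher at 24 h and 4 at both later times, and Gusb alone was lower at each time. The higher share was 33.3% at 24 h, near the 27.2% of all genes, and 66.7% at both later times (28.1% and 29.6%), and 1 lower gene is 16.7% (25.5% to 29.1% of all genes). Ids, iduronate sulfatase, was at 50.3, 42.3 and 28.6 CPM in NSPs and 97.9, 82.2 and 110.2 CPM at 24 h. It was at 106, 75.6 and 79.96 CPM at 72 h and 81.7, 124 and 63.9 CPM at 1 week, a wide spread that still lay above NSPs, with a rise of 2.40-fold at 24 h (adjusted p = 0.000137). Idua, which acts on the same iduronate chains, rose later: it was at 10.3, 14.9 and 12.8 CPM in NSPs and 11.03, 11.6 and 10.2 CPM at 24 h, but at 24.1, 26.9 and 24.4 CPM at 72 h and 27.6, 25.1 and 25.1 CPM at 1 week. The later libraries were all above the earlier ones, and the step from 24 h to 72 h was 2.29-fold (log2 fold change 1.20 (SE 0.16), adjusted p = 2.17e-05). Galns, the sulfatase for keratan and chondroitin sulfate, made the same step, from 4.16, 3.19 and 3.83 CPM to 7.42, 9.08 and 8.03 CPM (2.20-fold, adjusted p = 0.000466). At 1 week it was at 6.05, 4.93 and 4.72 CPM, and in NSPs at 3.17, 4.50 and 3.53 CPM, with a call against NSPs at 1 week lost without NSP replicate 1 or 3 or without 1 week replicate 1 or 2, at adjusted p of 0.064 to 0.191. That call was also lost with RLE normalization, by DESeq2, without the 3 libraries that stood apart and with the replicate number as a block. Gusb, beta-glucuronidase, was at 29.4, 35.8 and 32.3 CPM in NSPs and 21.1, 24.5 and 22.9 CPM at 24 h, 16.2, 19.1 and 20.7 CPM at 72 h and 16.3, 13.4 and 15.99 CPM at 1 week. Its libraries at each later time were below those of NSPs, by 2.14-fold at 1 week (adjusted p = 1.25e-06). Sgsh, a heparan sulfatase, was 1.44-fold higher at 72 h (lost without NSP replicate 3 or without 72 h replicate 2 or 3, at adjusted p of 0.0577 to 0.0704) and 1.56-fold higher at 1 week, with 21.6% of its exon bases shared with a gene on the other strand, and Naglu, which acts on heparan as well, was 1.52-fold higher at 24 h (lost without NSP replicate 1 or without 24 h replicate 2, at adjusted p of 0.0663 to 0.105).

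Of the 4 enzymes of glycoprotein and glycogen breakdown, 1 was lower than in NSPs at 24 h (25%, beside 25.5% of all genes), none was called at 72 h, and 1 was higher and 1 lower at 1 week (25% each, beside 29.6% and 29.1%), which is near the background at 24 h and 1 week. Gaa, the acid glucosidase that digests glycogen, was at 71.4 ± 16.1 CPM in NSPs and 108 ± 11.5 CPM at 1 week, 1.51-fold higher (adjusted p = 0.0104), a call lost without NSP replicate 1, at an adjusted p of 0.0614. Man2b1, an alpha-mannosidase, was 1.56-fold lower at 1 week (46.3 ± 13.1 CPM against 29.7 ± 1.15 CPM), and Manba, a beta-mannosidase, was not called in any comparison. Fuca1, a fucosidase, was 1.26-fold lower at 24 h (lost without NSP replicate 2 or 3 or without 24 h replicate 1 or 3, at adjusted p of 0.0708 to 0.119) and 1.31-fold higher at 72 h than at 24 h (lost without 24 h replicate 1 or 3 or without 72 h replicate 2 or 3, at adjusted p of 0.0859 to 0.179). Ppt1, the thioesterase that strips palmitate from proteins, was at 100.0, 103 and 103 CPM in NSPs, 143, 143 and 119 CPM at 24 h, 154, 182 and 209 CPM at 72 h and 199, 178 and 193 CPM at 1 week. It was 1.79-fold higher at 72 h and 1.86-fold at 1 week, and 1.32-fold at 24 h with a call lost without NSP replicate 1, 2 or 3 or without 24 h replicate 1 or 2, at adjusted p of 0.0515 to 0.0789. Of the exon bases of Ppt1, 3.5% overlap Cap1 on the other strand (a median of 3189.5 counts beside 2091.5). Lipa, the lysosomal acid lipase, was called in no comparison. Grn, progranulin, a secreted and lysosomal protein linked to frontotemporal dementia, was called at 72 h alone (1.38-fold, adjusted p = 0.0473), with values that overlapped those of NSPs and a call lost without NSP replicate 1 or without 72 h replicate 2 or 3, at adjusted p of 0.0787 to 0.241. This call was also lost with RLE normalization, by DESeq2 and without the 3 libraries that stood apart (adjusted p = 0.207 by edgeR).

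**Figure D4:**
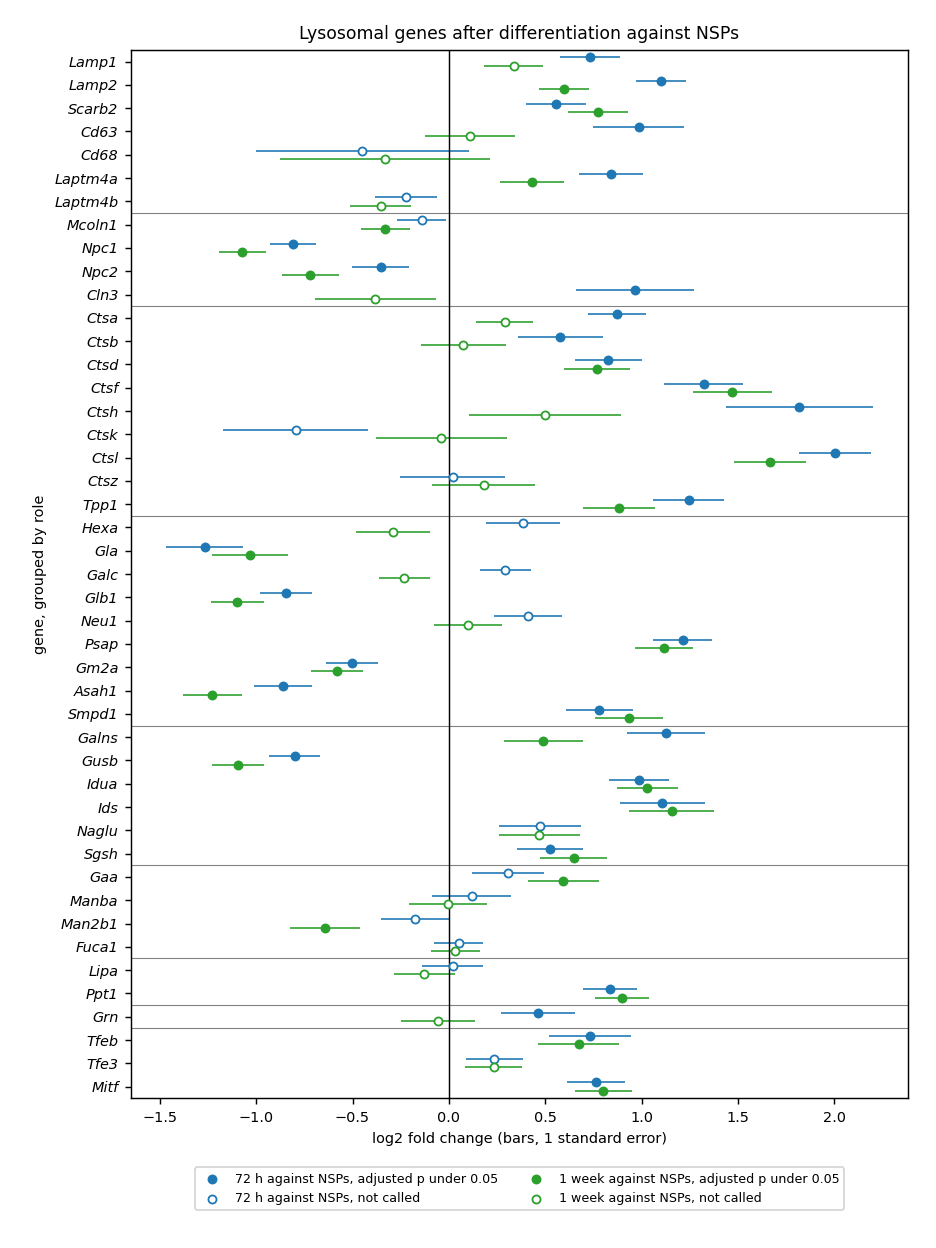
Points give the log2 fold change of each of the 45 lysosomal genes at 72 h (blue) and 1 week (green) against NSPs, with bars of 1 standard error, filled where the adjusted p was under 0.05. Ctsl lies farthest to the right at both times, while Gla, Glb1, Asah1, Gusb and Npc1 lie to the left at both.

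The regulators were measured as RNA only, whereas their activity depends on where the protein is in the cell. Mitf (chr6:97807052-98021349) was at 9.14, 10.3 and 11.6 CPM in NSPs and 33.7, 31.7 and 30.7 CPM at 24 h, 3.09-fold higher (log2 fold change 1.63 (SE 0.15), adjusted p = 8.32e-08). It was at 16.9, 17.9 and 17.995 CPM at 72 h and 17.1, 18.1 and 18.9 CPM at 1 week, between the first-day libraries and those of NSPs, and it was 1.82-fold lower at 72 h than at 24 h (adjusted p = 0.000254). The change of Mitf at 24 h was the largest upward one of the 45 genes at that time. Tfeb was at 7.04, 9.88 and 10.7 CPM in NSPs, 11.7, 11.2 and 13.6 CPM at 24 h, 15.1, 16.995 and 13.9 CPM at 72 h and 15.7, 13.04 and 15.4 CPM at 1 week. Its libraries were above NSPs at each time, and the difference passed the test at 72 h (1.66-fold, adjusted p = 0.00664) and at 1 week (1.59-fold, adjusted p = 0.0107), the latter lost without NSP replicate 1, at an adjusted p of 0.0543. Tfe3 was at 29.1, 34.3 and 30.5 CPM in NSPs, 30.4, 28.96 and 39.5 CPM at 24 h, 37.5, 36.4 and 36.8 CPM at 72 h and 37.5, 41.2 and 31.7 CPM at 1 week, and was called in none of the comparisons.

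Between one time and the next, 12 of the 45 genes were higher at 72 h than at 24 h (26.7%, beside 12.2% of all genes) and 2 were lower, Mitf and Npc1 (4.44% beside 12.6%). Of these 14 calls, 11 were kept without each single library in turn, and the other 3 were those of Fuca1, Lamp1 and Ppt1. That of Lamp1 was lost without 24 h replicate 1 or 3 or without 72 h replicate 2 or 3, at adjusted p of 0.0508 to 0.0842. That of Ppt1 was lost without 24 h replicate 1 or 3 or without 72 h replicate 2 or 3, at adjusted p of 0.0543 to 0.163. Psap rose 1.82-fold, Scarb2 1.78-fold and Ctsl 1.67-fold over this step. From 24 h to 72 h, 3 of 5 stem and cycling markers were lower and 1 was higher. Lower too were 2 of 5 oligodendrocyte-lineage, 2 of 5 neuron and 2 of 8 astrocyte markers. The part of these markers in the step was not tested. From 72 h to 1 week none was higher by edgeR's test (2.68% of all genes were), by DESeq2, or at an unadjusted p under 0.05 (8.38% of all genes), and 7 were lower, or 15.6% beside 3.96% of all genes. The 7 were Lamp2, Cd63, Cln3, Ctsa, Ctsh, Hexa and Galc, with falls from 1.42-fold (Lamp2) to 2.55-fold (Cln3). None of these calls was kept without each of the 6 libraries in turn, and 0 to 9 genes were called when 1 library was left out (9 without 72 h replicate 1, 2 without 72 h replicate 2, 1 without 72 h replicate 3 or 1 week replicate 2 or 3, and 0 without 1 week replicate 1), while 13 were lower without the 3 libraries that stood apart (8.99% of all genes). Over the same step 6 of 8 astrocyte markers were lower, Gfap among them, and their summed level went from 5696 to 8145 CPM at 72 h to 2683 to 3247 CPM at 1 week. Their part in the result was not tested.

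The second question was whether TNF changed these genes. At 24 h with TNF, 1 gene was higher and 1 lower than without it, shares of 2.22% each beside 2.18% and 1.32% of all genes. Cd68 (chr11:69664213-69666153) was at 1.51, 1.90 and 2.53 CPM without and at 15.3, 4.55 and 4.78 CPM with TNF, a rise of 4.16-fold (log2 fold change 2.06 (SE 0.54), adjusted p = 0.0409). Replicate 1 with TNF was far above its fellows, though these too lay above all the untreated libraries. The call was lost without 24 h replicate 1, 2 or 3 or without 24 h TNF replicate 1, at adjusted p of 0.106 to 0.314, and with all 3 libraries that stood apart left out the log2 fold change was 1.23 (adjusted p = 0.00619). At 72 h Cd68 was at 2.04, 2.15 and 1.98 CPM without and 9.58, 2.09 and 2.31 CPM with TNF, and of the TNF libraries replicate 1 alone was far above the untreated ones (adjusted p = 0.179). Of the 16 microglia and macrophage markers the sum was 3.28 CPM in that 24 h library, no higher than in the 2 others (4.33 and 3.66 CPM) or in the 3 untreated ones (3.69 to 4.08 CPM). Gm2a was at 186, 187 and 171 CPM without and 141, 117 and 126 CPM with TNF, 1.41-fold lower (adjusted p = 0.0477), a call lost without 24 h replicate 1, 2 or 3 or without 24 h TNF replicate 2 or 3, at adjusted p of 0.0719 to 0.176.

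At 72 h with TNF none was higher in the main edgeR fit (4.35% of all genes were) or by DESeq2, while 1 was higher by edgeR with no filter on low counts. At an unadjusted p under 0.05, 2 were higher (11.8% of all genes). In the main fit 5 were lower, or 11.1% beside 5.21% of all genes. Psap was at 1709.5, 2305 and 2449.6 CPM without and 1275, 1256 and 1408 CPM with TNF, 1.64-fold lower (adjusted p = 0.00416). The groups did not overlap, and at 24 h without TNF Psap was at 1181 ± 101 CPM. Gm2a was at 165, 218 and 232 CPM without and 137, 129 and 127 CPM with TNF, 1.56-fold lower (adjusted p = 0.00403). Galns was at 7.42, 9.08 and 8.03 CPM without and 5.41, 3.89 and 5.32 CPM with TNF, 1.68-fold lower (adjusted p = 0.0231). The TNF libraries lay below the untreated ones for all 3 genes, and the calls of Psap and Gm2a were kept without each library in turn, while that of Galns was lost without 72 h replicate 2 or 3 or without 72 h TNF replicate 2, at adjusted p of 0.0627 to 0.118. In a fit with the replicate number as a block and 72 h replicate 3 unpaired, the call of Psap was kept and that of Gm2a was lost. Ppt1 was at 154, 182 and 209 CPM without and 99.1, 151 and 135 CPM with TNF, 1.42-fold lower (adjusted p = 0.0291), a call lost without 72 h replicate 2 or 3 or without 72 h TNF replicate 1 or 3, at adjusted p of 0.0523 to 0.172. Lamp2 was at 647, 747 and 826 CPM without and 604, 564 and 493 CPM with TNF, 1.34-fold lower (adjusted p = 0.0487), a call lost without 72 h replicate 2 or 3 or without 72 h TNF replicate 1, 2 or 3, at adjusted p of 0.0537 to 0.228. The call of Lamp2 was also lost with each of the other filters on low counts, with the replicate number as a block and with only the groups compared. The number of lower genes was 2 without 72 h replicate 2 or 3, 3 without TNF replicate 2 or 3 and 12 without 72 h replicate 1. It was 10 without the 3 libraries that stood apart (7.29% of all genes). For the fits that left out a single library the shares of all genes are not given here. The median log2 fold change of the 45 genes was -0.24 at 72 h, beside -0.01 over all genes, and 0.11 at 24 h. Of the 8 astrocyte markers, 3 were lower with TNF at 72 h and their sum was 3485 to 4888 CPM, and their part in the result was not tested.

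**Figure D5:**
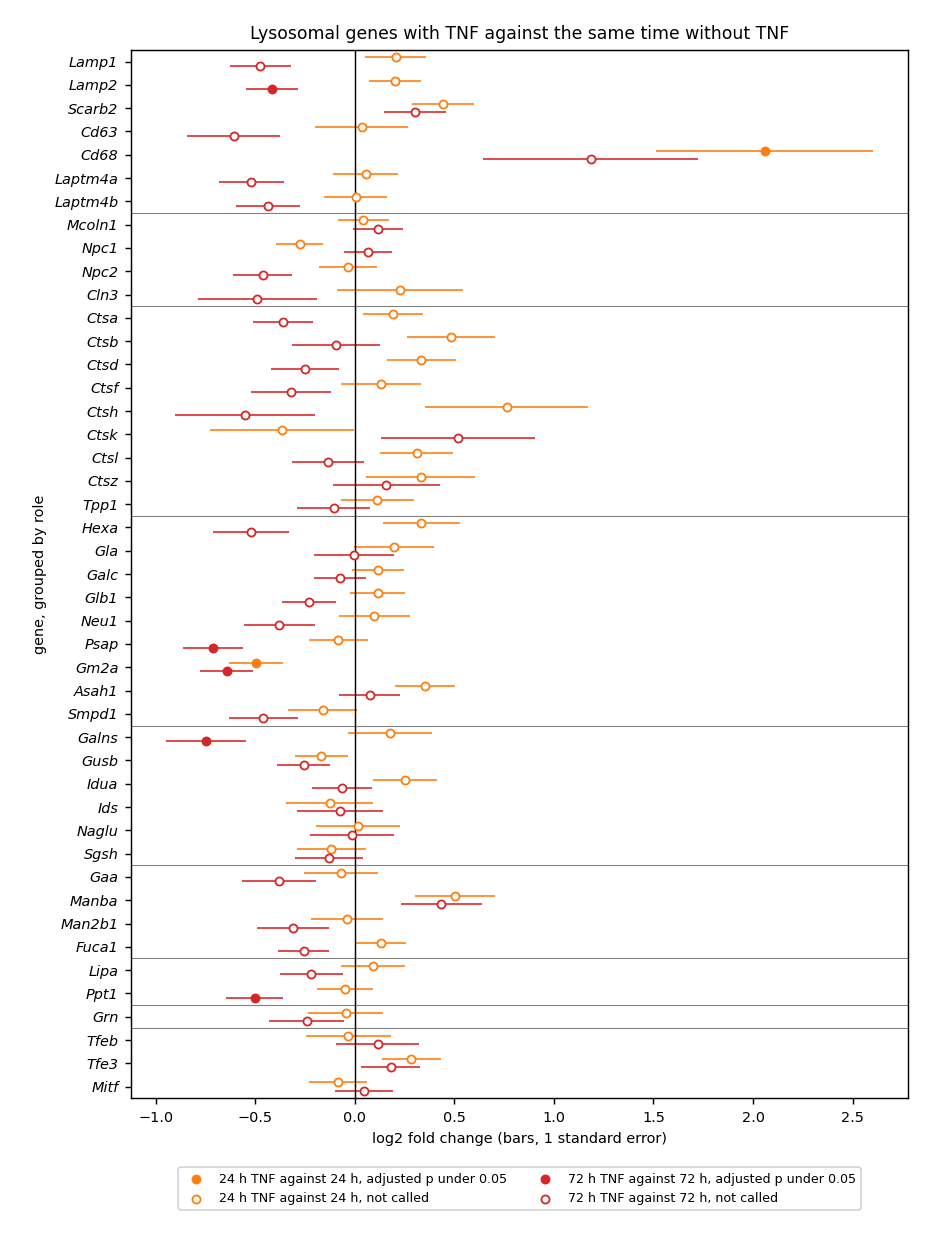
Points give the log2 fold change with TNF against the same time without TNF for the 45 lysosomal genes, at 24 h (orange) and 72 h (red), with bars of 1 standard error, filled where the adjusted p was under 0.05. At 72 h Psap, Gm2a, Galns, Ppt1 and Lamp2 are filled and to the left, and at 24 h Cd68 (right) and Gm2a (left) are.

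The difference between the effects of TNF at 72 h and at 24 h was tested as an interaction. None of the 45 genes passed it in the main edgeR fit (0.135% of all genes passed with a higher and 0.324% with a lower effect at 72 h) or by DESeq2. At an unadjusted p under 0.05, 11 had a lower effect at 72 h (5.6% of all genes did) and none a higher one (4.46%). Thus the fall of Psap with TNF at 72 h was not shown to differ from its effect at 24 h (difference -0.63 (SE 0.21) on the log2 scale, adjusted p = 0.26), nor was that of Galns (-0.92 (SE 0.29), adjusted p = 0.228). None of the 3 regulators was called with TNF. Tfeb was at 14.6, 8.43 and 12.6 CPM at 24 h and 19.9, 12.5 and 17.4 CPM at 72 h with TNF, Tfe3 at 44.3, 33.6 and 42.3 CPM and 46.99, 36.1 and 42.1 CPM, and Mitf at 25.7, 34.1 and 30.8 CPM and 21.98, 16.6 and 15.95 CPM. For each of the 3 genes and at both times these values overlapped those without TNF.

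Other genes of the same organelle were read from 7 further lists. Of 25 other lysosomal hydrolases tested, at 72 h 16 had risen and 3 had fallen against NSPs, with a median log2 fold change of 0.53. Over all genes tested the shares at 72 h were 28.1% higher and 27.2% lower, against which the counts of each list here stand. Naaa, which hydrolyses fatty acid ethanolamides, was at 3.05, 8.51 and 8.87 CPM in NSPs and 112, 142 and 166 CPM at 72 h. Scpep1, a serine carboxypeptidase, was at 46.3, 55.7 and 48.3 CPM in NSPs and 387, 475 and 536 CPM at 72 h, and Prcp, another carboxypeptidase, was at 44.3, 52.0 and 51.2 CPM in NSPs and 7.79, 9.39 and 10.95 CPM at 72 h. The values of the groups did not overlap, with log2 fold changes of 4.35 (SE 0.34), 3.22 (SE 0.20) and -2.38 (SE 0.20). Of the 17 V-ATPase subunits tested, which pump protons into the lysosome, 4 were higher (23.5%) and 1 lower (median 0.10), which is not above the share of all genes, and Atp6v0a2 had the largest rise, of 2.35-fold. Of the 17 autophagy genes, 9 were higher and 3 lower, among them Wipi1 (3.46-fold higher), Gabarapl1 (3.18-fold) and Sqstm1 (2.46-fold).

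Sorting genes, which bring new enzymes to the lysosome, were divided at 72 h, with 5 higher and 3 lower of 12. Sort1, a sorting receptor, was 1.79-fold higher, whereas Igf2r, the large mannose 6-phosphate receptor, was 2.12-fold lower. Of the 18 other transporters and channels tested, 5 were higher (27.8%) and 2 lower, and of the 17 genes of mTORC1 and Rag control 3 were higher (17.6%) and 2 lower, neither above the 28.1% of all genes that were higher. The largest change of the latter was that of Rragd, a GTPase that holds the MiT/TFE factors at the lysosome, at 3.02-fold higher. Among 4 inhibitors of cathepsins and related proteases, 3 were higher at 72 h. With TNF at 72 h, Scpep1 (151, 178 and 176 CPM), Naaa (33.6, 70.2 and 68.8 CPM) and Atp6v0a2 (115, 121 and 136 CPM) were lower than without it, by 2.77-fold, 2.44-fold and 1.95-fold. The third hydrolase called was Ctso, cathepsin O, 1.58-fold lower. Gabarapl2 and Gabarapl1 of the autophagy genes were 1.47-fold and 1.43-fold lower, and Rraga, a Rag GTPase, was 1.49-fold lower. Of the sorting genes Igf2r (1.80-fold) and Gga2 (1.53-fold) were higher with TNF at 72 h and Gnptg was 1.65-fold lower. Of the transporters Abca2 was 1.59-fold higher, and Abcb9 and Mfsd12 were 2.63-fold and 1.52-fold lower. The lower share at 72 h was 12% of the hydrolases, 11.8% of the autophagy genes and 11.1% of the transporters, beside 5.21% of all genes. The higher share was 16.7% of the sorting genes and 5.56% of the transporters, beside 4.35% of all genes. At 24 h with TNF only Serpina3n (6.17-fold higher) and Sqstm1 (1.64-fold higher) were called on these lists, while 2.18% of all genes were higher and 1.32% lower.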

How the data were processed

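RNA was measured in 18 libraries, 6 conditions with 3 replicates each by the labels. The study's methods describe its data in general as coming from independent biological experiments, but the labels do not tie each library to a brain or a culture, so p-values measure the spread between these libraries. The authors made stranded libraries from total RNA after depleting ribosomal RNA. They used Trim Galore for trimming, STAR for alignment to mm10 and featureCounts for counting, and they deposited raw counts without normalization. Versions, the strand setting and the treatment of reads with several matches are not given in the sources used here, so genes that share exons are uncertain. RNA quality per library was not used here. The paper gives a wide range of RNA quality numbers, from low ones to the top of the scale, and does not tie them to libraries.

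The counts of all 18 libraries were fitted with edgeR 4.0.16 (R 4.3.3, limma 3.58.1) by the quasi-likelihood test, after filterByExpr and TMM normalization, with 1 coefficient per condition. A gene was called at a Benjamini-Hochberg adjusted p under 0.05 over all 20067 genes tested. SE is the absolute log2 fold change divided by the square root of F. The code was tested on simulated data. Tables, promoter searches and figures were made with Python 3.11.15, numpy 2.4.6, pandas 2.3.3 and matplotlib 3.10.9. Libraries held 12509693 to 22549627 counts, and the precision of scarce genes is limited by counting as well as by the spread between libraries.

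Values per library are given for called genes with an absolute log2 fold change of at least 1, for the 3 called genes that moved most in each direction of a comparison and for the 3 regulators, and for some others named after their values were seen. Of each other list, up to 4 called genes with the largest change are named per comparison. The 45 genes, the lists and the tests were chosen with earlier results of these data known. Alternatives were RLE normalization, DESeq2 1.42.0, other filters on low counts, a fit of only the groups compared, a minimum fold change, a block for the replicate number and leaving out each library in turn. Leaving out the 3 libraries that stood apart was added after the data were seen.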

Additional observations from a re-analysis of the deposited data

Results flagged for a closer look

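For Atp6v0a2, a membrane subunit of the V-ATPase proton pump, and Scpep1, a serine carboxypeptidase, both from the lists beside the 45 lysosomal genes, the effect of TNF differed between the times by the interaction test of edgeR. Atp6v0a2 was at 126, 133 and 133 CPM without and 181, 149 and 158 CPM with TNF at 24 h. At 72 h it was at 210.4, 258 and 257 CPM without and 115, 121 and 136 CPM with TNF. The effect at 72 h minus that at 24 h was -1.28 (SE 0.16) on the log2 scale (adjusted p = 0.001). Scpep1 was at 74.6, 81.2 and 75.8 CPM without and 142, 77.03 and 82.1 CPM with TNF at 24 h, and at 387, 475 and 536 CPM without and 151, 178 and 176 CPM with TNF at 72 h. Its difference was -1.85 (SE 0.26) (adjusted p = 0.00174). In both genes the untreated level rose from 24 h to 72 h, and all 3 TNF libraries at 72 h lay below all 3 untreated ones. The lists were chosen with earlier results of these data known, so these are descriptions of where the test passed.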

How the results depend on the processing

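All 103 calls of a gene in a comparison kept their direction in the 1545 refits of the alternatives, and 1370 of these refits kept the call. Losses named above with a gene are mostly those of single libraries left out, and some of these calls were also lost in other settings. The 3 comparisons with NSPs and that of 72 h with 24 h kept their total of called genes, both directions together, within 1.5 times under every alternative except a minimum log2 fold change of 1, which left 4 of 19 at 24 h, 9 of 30 at 72 h, 10 of 26 at 1 week and 4 of 14 at 72 h against 24 h. By direction, the 11 higher genes at 24 h became 7 without NSP replicate 1, and the 8 lower ones became 5 without NSP replicate 2, NSP replicate 3 or 24 h replicate 3 and 13 without the 3 libraries that stood apart. The same minimum left 2 of 7 genes at 1 week against 72 h, 1 of 2 with TNF at 24 h and 0 of 5 with TNF at 72 h.

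The smaller comparisons depended on the setting, and the cause was not tested. At 1 week against 72 h, 7 genes were called, against 11 with only the groups compared and 13 without the 3 libraries that stood apart, and leaving out each library in turn gave 0 to 9. With TNF at 24 h, 2 genes were called, against 1 with at least 10 counts in every library, 0 with only the groups compared, and 0 to 1 without each library in turn. With TNF at 72 h, 5 genes were called, against 9 with no filter (1 higher and 8 lower) and 2 with only the groups compared. There were 10 without the 3 libraries that stood apart, 8 by DESeq2 (all lower, beside 1267 lower of 19829 genes), and 2 to 12 without each library in turn. For most of these refits the share of all genes is not given here. The interaction gave 0 genes, and 1 with no filter.

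The replicate number as a block left 1 gene with TNF at 24 h and 6, 4 and 0 genes at 1 week against 72 h, with TNF at 72 h and in the interaction. The header gives 72 h replicate 3 the number 4, and a replicate block with that library unpaired gave 0 genes at 1 week against 72 h, 1 with TNF at 24 h and 1 with TNF at 72 h (Psap). Same-numbered libraries deviated together with correlations of -0.416 to 0.303. With so few libraries this cannot show whether same-numbered ones shared a brain or a culture. The labels give only the number, so the block is kept as an alternative and not taken as a pairing. With 3 libraries a group, the smallest change called was 1.26-fold, and Ctsk, with 6 to 20 counts in a library, was measured too thinly for a change of that size to be seen.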
